A study of Mus musculus with 51 samples.

Results

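The Hippo pathway and its angiomotin partners were followed by 10 genes in single mouse oocytes and embryos. They were the coactivators Yap1 and Wwtr1 (TAZ), the kinases Lats1 and Lats2, the upstream regulator Nf2, the angiomotins Amot, Amotl1 and Amotl2, and the DNA-binding factors Tead1 and Tead2. A gene's probe sets were all those whose platform symbol was exactly its name, which gave 27 probe sets, and the main probe set was the one with the largest SD over all 51 arrays. These 10 genes were among 18193 genes on the array with a single symbol. All 10 were measured, and no filter on low values was applied.

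The study compared embryos made by in vitro fertilisation (IVF) with embryos cloned by transferring Sertoli cell nuclei. Metaphase II (MII) oocytes were B6D2F1 (n = 3), IVF embryos were B6D2F1×B6D2F1 (n = 3 at each of 6 stages), and clones had a B6CBF1 donor nucleus in a B6D2F1 recipient oocyte (n = 5 at each stage). Embryos were collected at the 1-cell, 2-cell, 4-cell, 8-cell, morula and blastocyst stages, 16, 32, 48, 62, 72 and 84 hours after sperm addition or activation, and all were cultured in KSOM medium under reduced oxygen. Each array held 1 oocyte or embryo, and the labels call the arrays biological replicates without tying them to animals. Clones and IVF embryos differed in strain cross, in activation and, because donor nuclei came from a male cell type, in the mix of sexes as well as in the origin of the nucleus, and these cannot be told apart.

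In the Hippo pathway, Nf2 (merlin) and scaffold proteins help to activate the kinases Lats1 and Lats2, which phosphorylate Yap1 and Wwtr1 and keep them out of the nucleus. Unphosphorylated Yap1 and Wwtr1 enter the nucleus and switch on genes together with TEAD factors. In the preimplantation embryo, outer polarised cells hold angiomotins at the apical membrane and keep Yap1 nuclear, where Tead4 and Yap1 promote Cdx2 and the trophectoderm. In inner cells angiomotins at cell junctions help to activate Lats kinases, Yap1 leaves the nucleus and Sox2 marks the future inner cell mass. The arrays measured RNA, so neither phosphorylation nor the place of a protein in the cell was measured here.

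Values are on a log2 scale and centred for each probe set, so that 0 is the median of the 51 arrays. A difference of 1 between embryos is therefore a doubling, and values of different genes cannot be set against each other. Whole embryos were lysed, so fewer cells of a type and less RNA per cell cannot be told apart. A change is called where limma's moderated test gave an adjusted p (Benjamini-Hochberg over all 18193 genes) below 0.05. In the array-wide measures, the mean of 18 bacterial hybridisation control probe sets differed between the kinds of embryo (clones minus IVF) by -1.01 at the 1-cell stage and by 1.27, 1.31 and 0.828 at the 2-, 4- and 8-cell stages. Each of these had an exact two-sided permutation p of 0.0357 (the smallest that 5 against 3 can give; 0.0857 after adjustment over 12 tests). Clones and IVF embryos did not overlap in this mean at these stages. Fits by stage that use it as a covariate can therefore hardly tell it apart from the kind of embryo. The 3′-minus-5′ difference of the Actb and Gapdh control probe sets, a sign of RNA quality, was 0.813 higher in cloned than in IVF blastocysts (-1.52 to -0.722 against -2.36 to -1.63), with the same p-values, and overlapped at the other stages. The mean of 6 oocyte markers was 5.19 to 5.46 in oocytes, and that of 6 cumulus markers stayed between -0.12 and 0.36 in the embryos. At the 8-cell stage the oocyte marker mean was -1.72 to -0.76 in clones and 0.40 to 0.72 in IVF embryos, and its part in the 8-cell differences was not tested. At the 8-cell stage the Y-linked gene Eif2s3y was -5.25 in the clone of replicate 4 and -2.70 in that of replicate 2, against 0.00, 1.01 and 1.23 in the others and -5.42 to -5.37 in oocytes. The label of the 8-cell clone of replicate 4 is therefore in doubt, and results that use it are given with and without it where the call changed.

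RefSeq's GRCm38.p6 table held a start-site window for 9 of the 10 genes (12 windows), and none for Tead1. The stretches printed here end at the outermost annotated start of the gene and reach up to 250 bases upstream. Wwtr1 and Nf2 are shown because their main probe sets rose from the 1-cell to the 2-cell stage in IVF embryos and in clones. Tead2 is shown because it came on at the blastocyst, and Yap1 because its main probe set differed between clones and IVF embryos at 2 stages. Capitals mark 2 motifs searched on both strands, the TEAD motif GGAATG and the GC box GGGCGG, each with its reverse complement, which do not overlap in these stretches.

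Wwtr1, chr3:57575911-57576160, minus strand: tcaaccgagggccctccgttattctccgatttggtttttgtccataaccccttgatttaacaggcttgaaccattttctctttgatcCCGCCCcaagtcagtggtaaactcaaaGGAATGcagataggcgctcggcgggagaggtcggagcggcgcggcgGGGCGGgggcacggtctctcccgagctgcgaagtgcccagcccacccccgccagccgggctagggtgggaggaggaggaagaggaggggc
Nf2, chr11:4849545-4849794, minus strand: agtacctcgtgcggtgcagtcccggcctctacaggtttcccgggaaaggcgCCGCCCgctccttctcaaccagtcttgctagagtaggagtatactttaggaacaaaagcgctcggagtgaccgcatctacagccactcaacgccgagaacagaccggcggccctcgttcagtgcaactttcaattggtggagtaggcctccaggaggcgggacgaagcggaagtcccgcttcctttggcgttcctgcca
Yap1, chr9:8004639-8004846, minus strand: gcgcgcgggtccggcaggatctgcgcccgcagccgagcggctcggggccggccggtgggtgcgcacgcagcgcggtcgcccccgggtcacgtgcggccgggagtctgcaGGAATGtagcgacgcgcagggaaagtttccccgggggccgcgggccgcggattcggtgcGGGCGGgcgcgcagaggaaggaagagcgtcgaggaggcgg
Tead2, chr7:45215542-45215791, plus strand: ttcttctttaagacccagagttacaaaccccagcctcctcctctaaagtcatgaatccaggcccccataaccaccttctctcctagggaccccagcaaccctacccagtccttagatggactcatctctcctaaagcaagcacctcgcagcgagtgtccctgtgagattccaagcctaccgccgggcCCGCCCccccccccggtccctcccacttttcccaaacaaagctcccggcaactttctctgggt

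The stretches upstream of Wwtr1 and Yap1 each held 1 GGAATG, and those upstream of Nf2 and Tead2 held none. Over all 32851 windows, 12.6% held GGAATG and 32.7% held GGGCGG within the 250 upstream bases. Each of the 4 stretches held at least 1 GC box. CpG dinucleotides numbered 36 upstream of Yap1, 20 upstream of Nf2, 18 upstream of Wwtr1 and 7 upstream of Tead2, against a median of 6 in 250 bases over all windows. The Yap1 stretch is shorter, with 208 bases. A match describes the letters only, since no binding was measured.

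Most of the members' called changes were changes between stages, and 2 were differences between clones and IVF embryos. Over the oocyte and IVF series, 11 of 60 member tests were called (8 higher and 3 lower, in 7 genes), against 22% of all tests of all genes. By transition, 3 members were called from the 1-cell to the 2-cell stage (35.9% of all genes called), 3 from the 2-cell to the 4-cell (23.8%), 1 from the 4-cell to the 8-cell (1.98%), 2 from the 8-cell to the morula (17.2%) and 2 from the morula to the blastocyst (22.6%). No main probe set was called by limma from the oocyte to the IVF 1-cell embryo (30.6% of all genes), where 0 of 10 also had an unadjusted p below 0.05 (37.2% of all genes). In clones, 13 of 50 tests were called (10 higher and 3 lower, in 9 genes), against 25.9% over all genes. These were 4 members from the 1-cell to the 2-cell stage (41.3% of all genes), 4 from the 2-cell to the 4-cell (29.9%), 2 from the 8-cell to the morula (17.4%) and 3 from the morula to the blastocyst (34.5%). From the 4-cell to the 8-cell stage limma called 0 members (6.5% of all genes), with 5 of 10 at an unadjusted p below 0.05 (17.3% of all genes). The members' share of calls was thus close to the background in both series.

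**Figure D1:**
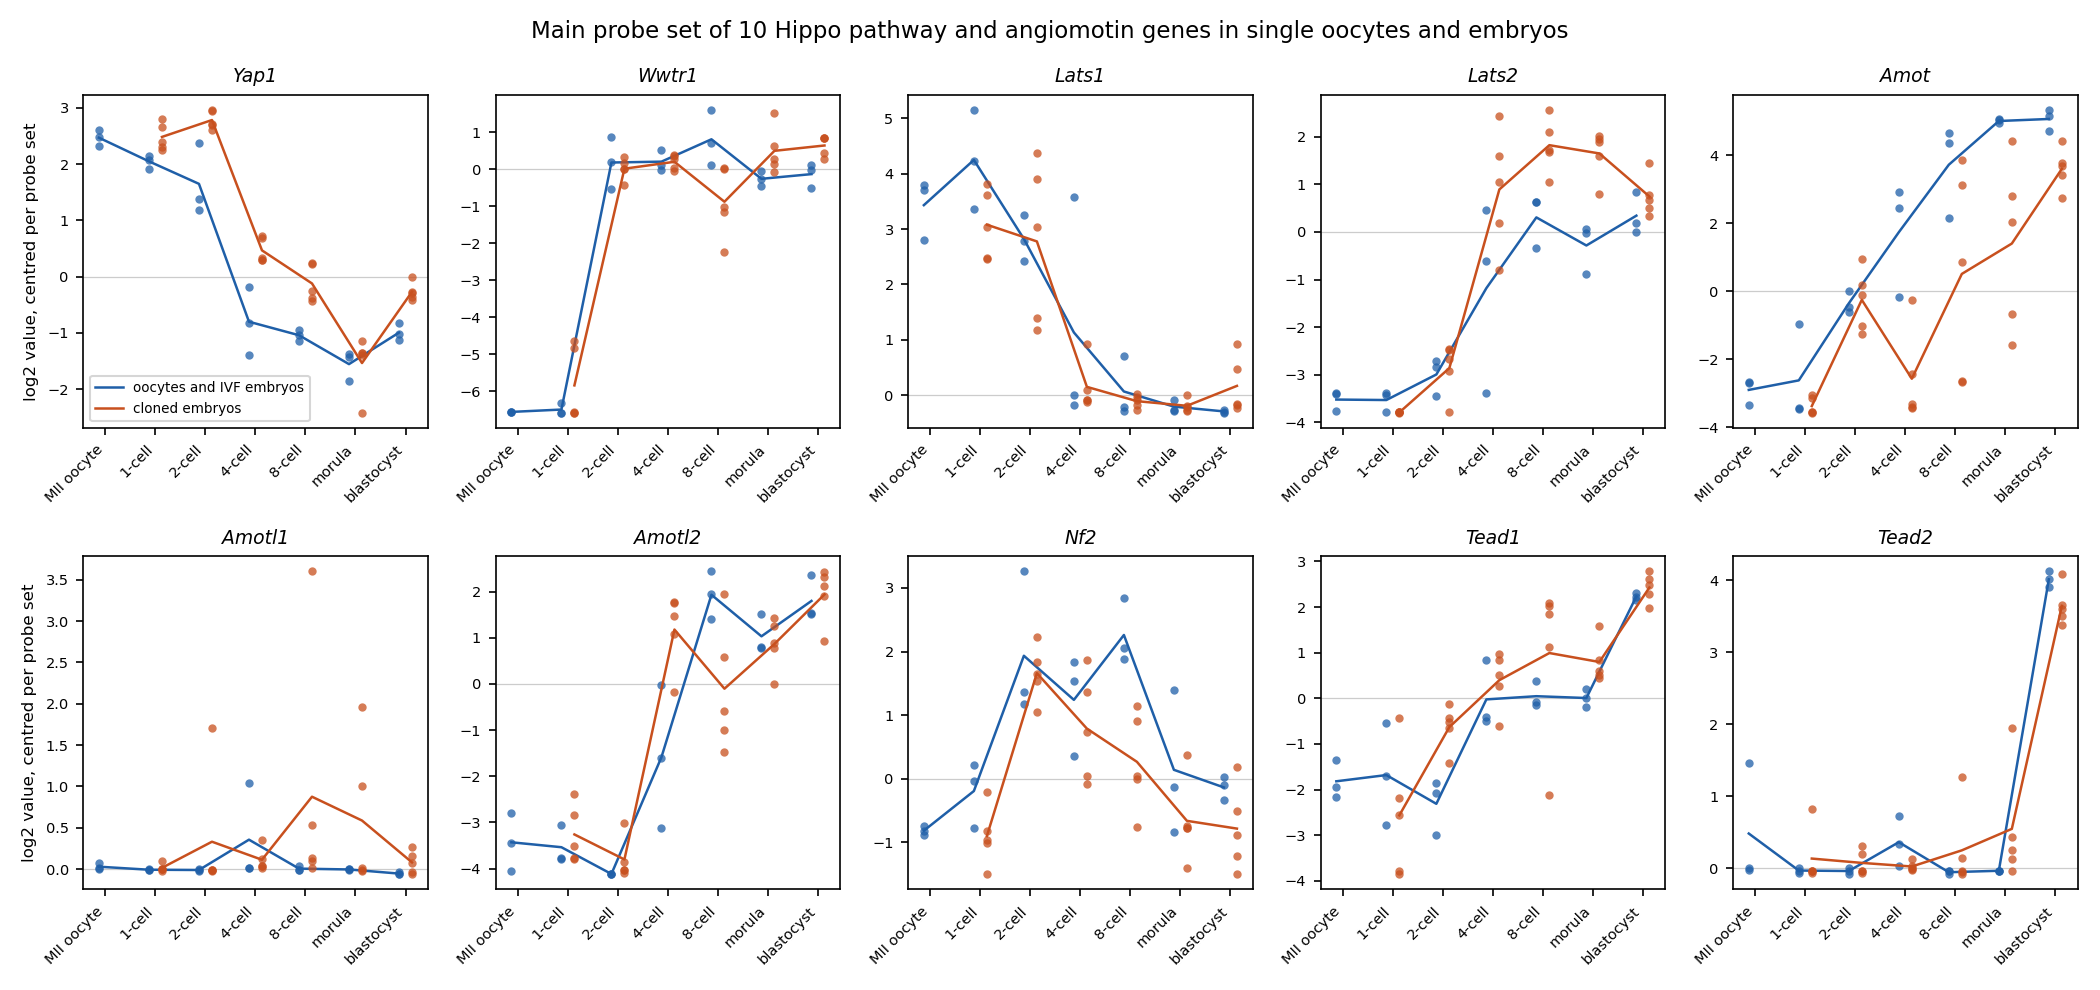
Values of the main probe set of each of the 10 genes (y axis, log2, centred per probe set) in every oocyte and embryo by stage (x axis). Blue points are oocytes and IVF embryos (3 per group), orange points are clones (5 per group) and lines join group means. Wwtr1 rose at the 2-cell stage and Tead2 at the blastocyst in both kinds of embryo, and Yap1 values of clones lay above those of IVF embryos at every stage but the morula.

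Between clones and IVF embryos, 2 of 60 member tests were called, both for Yap1 and both higher in clones, against 3.99% of the tests of all genes. They fell at the 8-cell stage (1 of 10 members, 6.62% of all genes) and at the blastocyst (1 of 10, 6.18% of all genes). At the 1-cell, 2-cell, 4-cell and morula stages limma called 0 members (6.31%, 2.37%, 2.26% and 0.165% of all genes called), and 2, 2, 3 and 3 of the 10 had an unadjusted p below 0.05 (18.2%, 14.9%, 14% and 10% of all genes). In 1 fit of all 51 arrays, where all groups share 1 estimate of the spread, 12 of the 60 tests were called, against 9.48% over all genes. Those 12 were Yap1 at the 2-, 4- and 8-cell stages, Amot and Amotl2 at the 4- and 8-cell stages, Lats2 at the 4-cell, 8-cell and morula stages, and Nf2 and Wwtr1 at the 8-cell stage.

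Clones lay wholly above or below IVF embryos for 2 of the 10 members at the 1-cell stage (14.8% of all genes), 3 at the 2-cell (11.9%), 2 at the 4-cell (11.1%), 4 at the 8-cell (48.2%), 3 at the morula (8.51%) and 4 at the blastocyst (16.3%). At the 8-cell stage 37.1% of all genes lay higher in every clone than in every IVF embryo, so separation there was common over the whole array. The median size of the members' clone-minus-IVF difference was 0.54, 0.22, 0.72, 1.23, 0.68 and 0.43 log2 from the 1-cell stage to the blastocyst. The same median over all genes was 0.18, 0.21, 0.19, 0.27, 0.14 and 0.12. All genes were taken without a filter and were not matched to the members on their spread over the arrays. These medians are therefore no test of the members.

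**Figure D2:**
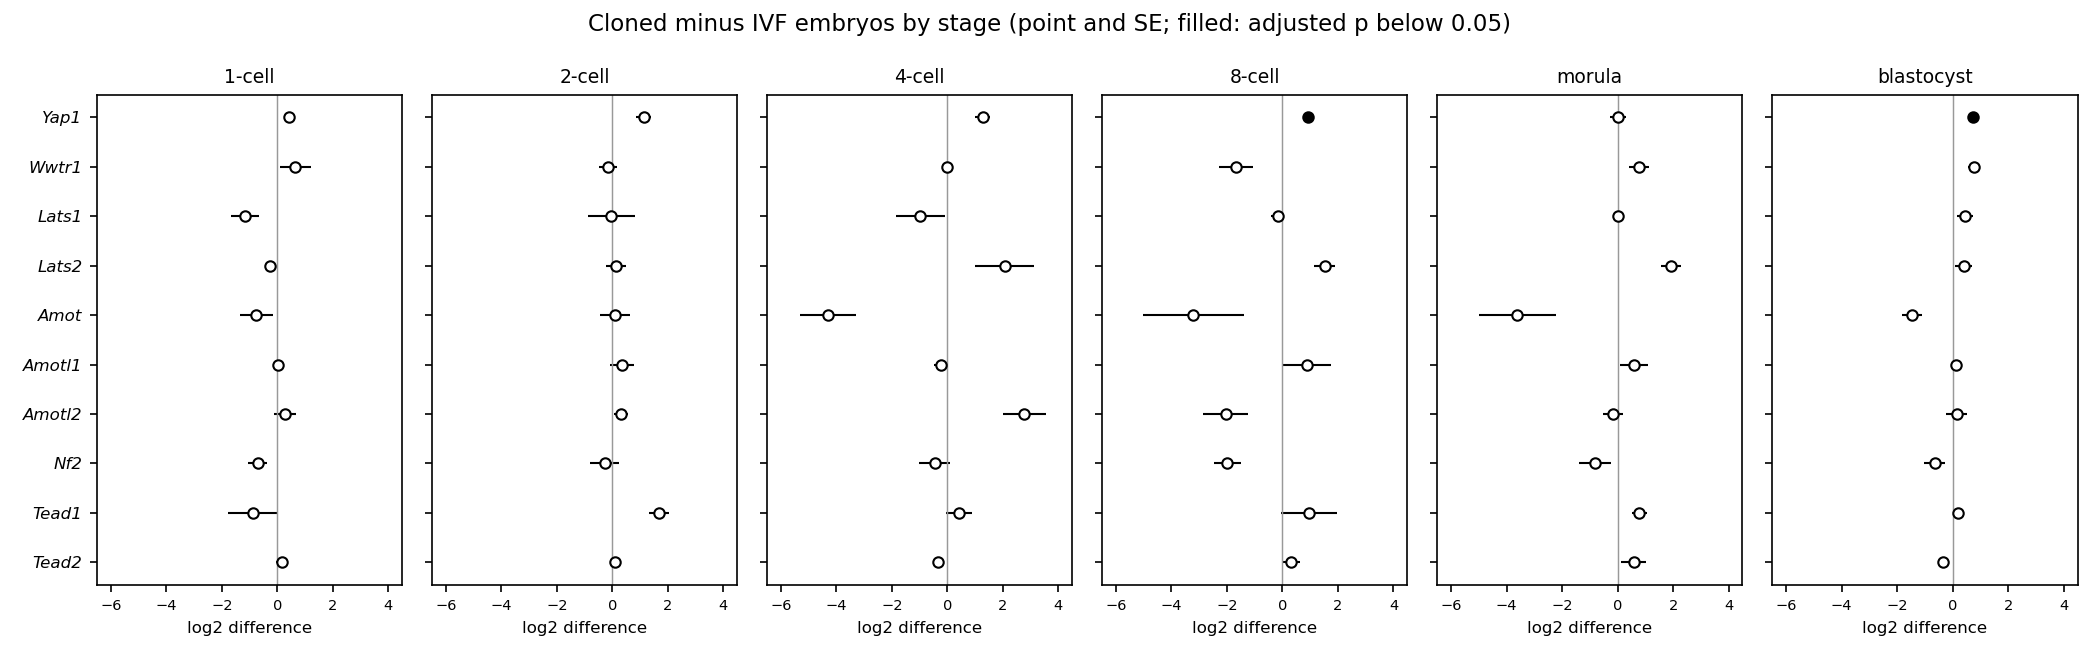
Clone-minus-IVF difference in log2 (x axis) for each member (y axis) at each stage, with its SE as the bar. Filled points are called at an adjusted p below 0.05 (Yap1 at the 8-cell stage and at the blastocyst), and open points are not. Amot has the lowest difference at the 4-cell stage, the 8-cell stage, the morula and the blastocyst, with wide errors at the 8-cell stage and the morula.

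Yap1, the main coactivator of the pathway (Entrez 22601, chr9:7931999-8004638, GRCm38.p6), was high in oocytes and fell in steps. Its main probe set read 2.60, 2.49 and 2.32 in the 3 oocytes and 2.08, 1.92 and 2.15 in IVF 1-cell embryos. IVF 2-cell embryos read 2.38, 1.38 and 1.19, and IVF 4-cell embryos read -0.82, -1.40 and -0.18. All values before the 4-cell stage lay above all values from it on, and the fall from the 2-cell to the 4-cell stage was -2.45 ± 0.29 (SE; limma adjusted p = 1.97e-05). The lowest IVF group was the morula, with -1.37, -1.86 and -1.43, and IVF blastocysts read -1.13, -0.83 and -1.02. In clones the 2-cell to 4-cell fall was -2.32 ± 0.18 (SE; adjusted p = 2.46e-10). Clones then fell by a further -1.41 ± 0.18 from the 8-cell to the morula (adjusted p = 4.18e-06) and rose by 1.27 ± 0.18 from the morula to the blastocyst (adjusted p = 7.4e-06).

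By its main probe set Yap1 was higher in clones at the 8-cell stage and at the blastocyst. The other probe set, described below, lay the other way at the 8-cell stage. At the 8-cell stage the 5 clones read 0.23, -0.44, -0.25, -0.38 and 0.24, and the 3 IVF embryos read -0.95, -1.14 and -1.03. No clone overlapped with an IVF embryo, and the difference was 0.92 ± 0.19 (SE; adjusted p = 0.0413). Cloned blastocysts read 0.00, -0.27, -0.42, -0.29 and -0.36, again all above the IVF blastocysts, with a difference of 0.73 ± 0.11 (SE; adjusted p = 0.0171). The 3′-minus-5′ difference of the control probe sets also separated these blastocysts without overlap, and its part in the Yap1 difference was not tested. Clones also lay wholly above IVF embryos at the 1-cell stage (2.25 to 2.80 against 1.92 to 2.15), the 2-cell stage (2.61 to 2.96 against 1.19 to 2.38) and the 4-cell stage (0.29 to 0.73 against -1.40 to -0.18), without a call. The adjusted p-values there were 0.155, 0.099 and 0.078. With the hybridisation controls as a covariate the 2-cell difference went from 1.13 to 0.05 and the 4-cell difference from 1.27 to 0.49. The 1-cell difference went from 0.43 to 0.76 and was then called (adjusted p = 0.0183). The controls themselves did not overlap between the groups (0.573 to 1.22 in clones against -0.734 to -0.227 at the 2-cell stage). These fits thus cannot separate the controls from the kind of embryo. At the morula the difference was 0.02 ± 0.30 (SE), and the groups overlapped. Of the 8 embryos at the 8-cell stage, leaving out any but the clone of replicate 2 ended the call (0.83 to 0.98, adjusted p up to 0.131), and without the clone of replicate 4, whose label is in doubt, the difference was 0.98 (adjusted p = 0.054). Leaving out IVF replicate 1 or 3 took the blastocyst difference to 0.66 or 0.71 (adjusted p = 0.0579 or 0.0594). With the hybridisation controls as a covariate the 8-cell difference was 1.11 (adjusted p = 0.371) and the blastocyst difference 0.74 (adjusted p = 0.0712). Centring the arrays ended the 8-cell call (adjusted p = 0.0512), and the single fit of all arrays ended the blastocyst call (adjusted p = 0.0867).

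The other Yap1 probe set, 1416487_a_at, did not follow this course in full. It read -3.04, -2.81 and -3.26 in oocytes and 1.82, 1.58 and 2.16 in IVF 1-cell embryos, a rise of 4.89 ± 0.29 (SE; adjusted p = 5.48e-09 over 45037 probe sets). The main probe set was lower in IVF 1-cell embryos than in oocytes (means 2.05 and 2.47, no overlap), without a call. By 1416487_a_at clones were lower at the 1-cell stage, where they read 1.25, 0.99, 1.10, 0.93 and 1.08 and the difference was -0.78 ± 0.14 (SE; adjusted p = 0.0338). At the 8-cell stage clones were at -0.58, -0.23, -1.82, -2.75 and -2.17 and IVF embryos at 0.12, 0.00 and 0.66, all above the clones (-1.77 ± 0.62; adjusted p = 0.107). At the 4-cell stage it gave -0.59 ± 0.27 (adjusted p = 0.547). From the 8-cell stage to the morula in clones, where the main probe set fell, it gave 0.07 ± 0.38 (adjusted p = 0.953). At the blastocyst both probe sets were higher in clones, and this one differed by 0.96 ± 0.15 (SE; adjusted p = 0.0244). It fell from the 2-cell to the 4-cell stage like the main probe set, by -1.14 in IVF embryos and -2.39 in clones. The call at the 8-cell stage thus rests on 1 of 2 probe sets, and the one at the blastocyst on both. Over all probe sets, 3.57%, 1.43%, 8.01% and 3.36% were called between clones and IVF embryos at the 1-cell, 2-cell, 8-cell and blastocyst stages. For stage changes the share was 24%, 25.6% and 17.4% in the series from oocyte to IVF 4-cell embryo, 29.6% and 25.9% in clones from the 1-cell to the 4-cell stage, and 8.54%, 0.759% and 3.55% for the differences of transitions at 1-cell to 2-cell, 4-cell to 8-cell and 8-cell to morula.

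**Figure D3:**
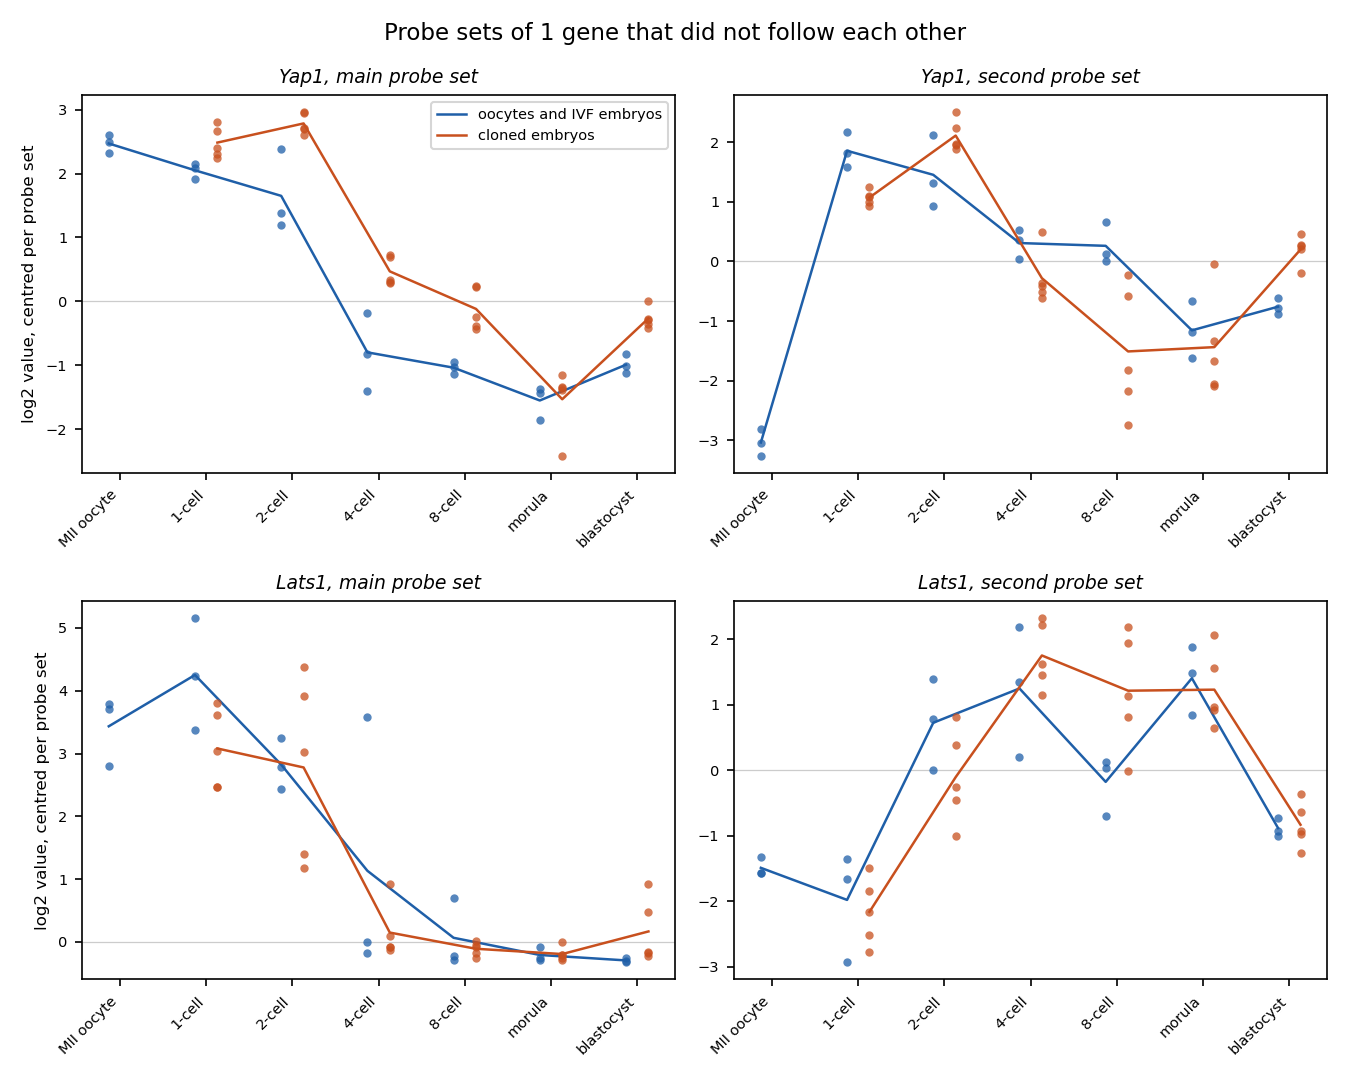
Values of both probe sets of Yap1 (top) and of Lats1 (bottom) by stage (x axis; y axis log2, centred per probe set) in oocytes and IVF embryos (blue) and clones (orange), with lines through group means. The main Yap1 probe set starts near 2.47 in oocytes and the other at -3.04 on average, and the Lats1 probe sets run in opposite directions.

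Wwtr1 (TAZ), the second coactivator (Entrez 97064, chr3:57455644-57575910), came on at the 2-cell stage. Oocytes read -6.55, -6.56 and -6.55, IVF 1-cell embryos -6.31, -6.58 and -6.58, and IVF 2-cell embryos 0.19, -0.53 and 0.87. The rise from the 1-cell to the 2-cell stage was 6.67 ± 0.34 (SE; adjusted p = 3.53e-10) in IVF embryos and 5.85 ± 0.40 (adjusted p = 2.01e-12) in clones. Clones read -6.57, -4.65, -4.83, -6.56 and -6.58 at the 1-cell stage, so replicates 2 and 3 stood above the rest, and -0.43 to 0.32 at the 2-cell stage. The other 2 probe sets rose as well, by 5.79 and 5.85 in IVF embryos and by 2.68 and 5.33 in clones. For 1 of them, 1417818_at, the rise was smaller in clones than in IVF embryos by -3.11 ± 0.98 (SE; adjusted p = 0.038 over 45037 probe sets). Its cloned 2-cell embryos read -1.79, -5.08, -1.46, -2.28 and -2.66, all below the IVF values of 0.39, 0.20 and 0.84.

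After the 2-cell stage the main Wwtr1 probe set moved in opposite directions in the 2 kinds of embryo around the 8-cell stage. IVF 8-cell embryos read 0.12, 1.59 and 0.70 and IVF morulae -0.28, -0.04 and -0.47, a fall of -1.07 ± 0.34 (SE; adjusted p = 0.0434). Cloned 8-cell embryos read -1.17, 0.00, -1.02, 0.02 and -2.24, all below the IVF 8-cell embryos, and cloned morulae read 0.63, 0.14, 0.26, 1.51 and -0.08, a rise of 1.37 ± 0.40 (SE; adjusted p = 0.0173). The 2 transitions differed by 2.44 ± 0.58 (SE; adjusted p = 0.00737), and this was 1 of 10 members called in that comparison (5.66% of all genes). The probe set 1437155_a_at gave 2.32 ± 0.49 (adjusted p = 0.00341 over 45037 probe sets), and 1417818_at gave 1.39 ± 0.98 (adjusted p = 0.504). Without IVF replicate 2 or 3 the difference was 2.15 (adjusted p = 0.0707) or 2.39 (adjusted p = 0.0575). The IVF fall was not called without any 1 of the 3 IVF replicates (-1.40, -0.78 and -1.02) or with the covariate (-0.95). Nor was it called over all probe sets (adjusted p = 0.06) or with the replicate number as a block (adjusted p = 0.0665). By 1417818_at the IVF change was -0.01, so this probe set showed no IVF fall, and its clone change of 1.38 was not called. The clone rise of the main probe set was not called without replicate 1, 3 or 5 (1.27, 1.40 and 1.18). At single stages, the clone-minus-IVF difference was -1.68 ± 0.61 (adjusted p = 0.135) at the 8-cell stage and 0.77 ± 0.20 (adjusted p = 0.0773) at the blastocyst, with no overlap at either stage.

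Lats1, a kinase that phosphorylates both coactivators (Entrez 16798, chr10:7681200-7716461), was high before the 4-cell stage by its main probe set. Oocytes read 3.79, 2.80 and 3.71, IVF 1-cell embryos 4.23, 3.37 and 5.15, and IVF 2-cell embryos 3.25, 2.43 and 2.79. At the 4-cell stage 1 IVF embryo still read 3.58 while the others read -0.18 and about 0, and IVF embryos from the 8-cell stage on lay between -0.32 and 0.70. None of these neighbouring IVF groups was called. In clones, 2-cell embryos read 1.17, 1.40, 3.03, 4.38 and 3.91 and 4-cell embryos -0.08, -0.08, 0.93, 0.10 and -0.12, a fall of -2.63 ± 0.44 (SE; adjusted p = 3.36e-05). The other Lats1 probe set, 1435739_at, ran the opposite way, with a correlation of -0.62 over the 13 group means. It rose by 2.71 ± 0.50 from the 1-cell to the 2-cell stage in IVF embryos (adjusted p = 0.000486 over 45037 probe sets) and by 1.86 ± 0.38 from the 2-cell to the 4-cell stage in clones (adjusted p = 0.000621). The fall of Lats1 RNA is thus a result of 1 probe set only. Clones and IVF embryos did not differ in a call at any stage, with differences from -1.17 ± 0.51 (SE) at the 1-cell stage to 0.46 ± 0.29 at the blastocyst.

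Lats2, the other Lats kinase (Entrez 50523, chr14:57689662-57746212), had the opposite course to the main Lats1 probe set. Oocytes read -3.39, -3.40 and -3.77 and IVF 2-cell embryos -2.70, -2.84 and -3.44. IVF 4-cell embryos were spread, at -0.61, 0.46 and -3.39, and IVF 8-cell embryos read 0.63, -0.33 and 0.62. By the main probe set no single IVF transition was called, and the largest was 1.81 ± 0.67 (SE; adjusted p = 0.0638) from the 2-cell to the 4-cell stage. Cloned 2-cell embryos read -2.93, -3.78, -2.66, -2.47 and -2.46 and cloned 4-cell embryos 1.59, 0.18, 2.44, 1.05 and -0.79. That rise of 3.75 ± 0.41 (SE; adjusted p = 6.36e-08) was called, and all cloned 4-cell embryos lay above all cloned 2-cell embryos. A further probe set, 1439441_x_at, rose over the same transition by 3.43 in IVF embryos and 4.22 in clones (adjusted p = 8.49e-05 and 3.42e-05 over 45037 probe sets). Used in place of the main probe set, it fell from the oocyte to the IVF 1-cell stage by -1.91 (adjusted p = 0.00485). The main one gave -0.01 there.

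By the main probe set Lats2 stood above the IVF embryos in all clones at the 8-cell and morula stages, without a call. Cloned 8-cell embryos read 1.69, 2.56, 1.04, 2.10 and 1.73, and the difference from IVF embryos was 1.52 ± 0.39 (SE; adjusted p = 0.0659). Cloned morulae read 2.02, 1.89, 1.60, 1.95 and 0.79 against 0.07, -0.89 and -0.03 in IVF morulae, a difference of 1.93 ± 0.35 (adjusted p = 0.105). By 1439441_x_at the groups overlapped at both stages, with differences of 0.57 ± 0.69 and 0.21 ± 0.28 (adjusted p = 0.531 and 0.809). The probe set 1437101_at lay the other way at the 8-cell stage (-1.93 ± 0.49; adjusted p = 0.0577), and its change from the 4-cell to the 8-cell stage was lower in clones by -2.29 ± 0.57 (adjusted p = 0.0442). At the blastocyst clones read 0.34 to 1.44 and IVF embryos 0.00 to 0.84, so the groups overlapped. The other 5 Lats2 probe sets had correlations of 0.91, 0.82, 0.56, 0.37 and -0.07 with the main one over the 13 group means, and the last had an SD of 0.04.

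Nf2, which encodes the upstream regulator merlin (Entrez 18016, chr11:4757639-4849544), rose at the 2-cell stage by its main probe set. Oocytes read -0.88, -0.75 and -0.82, IVF 1-cell embryos -0.77, -0.03 and 0.22, and IVF 2-cell embryos 1.37, 1.17 and 3.26. The rise from the 1-cell stage was 2.13 ± 0.58 (SE; adjusted p = 0.0084) in IVF embryos and 2.56 ± 0.40 (adjusted p = 6.29e-06) in clones. The IVF rise was not called without IVF replicate 1 or 2 (2.12 and 2.59), with quantile normalisation (2.11) or with the hybridisation controls as a covariate (1.45). Group means of 1427708_a_at went from -0.78 to 2.94 in IVF embryos and from -0.13 to 1.89 in clones. Those of 1421820_a_at were 1.60 in oocytes, -0.80 in IVF 1-cell and 1.85 in IVF 2-cell embryos. In clones they were 0.38 at the 1-cell and 0.54 at the 2-cell stage, so this probe set showed little rise there. By the main probe set Nf2 stayed up in IVF embryos to the 8-cell stage, at 2.05, 2.84 and 1.89, and fell at the morula to 1.39, -0.13 and -0.84. That fall was -2.12 ± 0.58 (SE; adjusted p = 0.0196), and it was not called without IVF replicate 2 or 3 (-1.69 and -1.81) or with the covariate (-1.84).

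In cloned 8-cell embryos 2 of the 4 Nf2 probe sets were called lower. By the main probe set clones read -0.76, 1.15, 0.90, 0.04 and 0.00, all below the IVF embryos, and the difference of -1.99 ± 0.48 (SE) had an adjusted p of 0.0577, just short of a call. By 1427708_a_at clones read between -0.02 and 0.01 against 2.10, 1.30 and 0.89, a difference of -1.43 ± 0.25 (adjusted p = 0.032 over 45037 probe sets). By 1421820_a_at clones read -0.14, -0.94, -0.18, -0.88 and -1.28 against 1.72, 1.32 and 1.55, a difference of -2.21 ± 0.30 (adjusted p = 0.0178). The remaining probe set had an SD of 0.29 over the arrays. At the other stages the main probe set gave differences from -0.80 to -0.28 with overlapping groups, and none was called. The probe set 1421820_a_at was called there as well, higher in clones by 1.18 at the 1-cell stage (adjusted p = 0.00956) and lower by -1.32 at the 2-cell stage (adjusted p = 0.0393).

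Amot, the angiomotin that links Hippo signalling to cell polarity (Entrez 27494, chrX:145446424-145505966), had the widest range of IVF stage means among the members, 7.97 log2 units. Oocytes read -2.69, -3.36 and -2.66, IVF 1-cell embryos -3.46, -3.45 and -0.96, and IVF 2-cell embryos 0.00, -0.46 and -0.61. The level rose on through the 4-cell stage (-0.18, 2.93 and 2.46) and the 8-cell stage (4.36, 4.66 and 2.15) to morulae at 5.06, 5.03 and 4.94 and blastocysts at 5.17, 4.71 and 5.33. IVF morulae and blastocysts overlapped, and all lay above all earlier groups. Only the step from the 1-cell to the 2-cell stage was called, 2.27 ± 0.80 (SE; adjusted p = 0.037) in IVF embryos and 3.13 ± 1.10 (adjusted p = 0.0228) in clones. Leaving out IVF replicate 1 or 2 (1.67 and 1.91), or clone replicate 1 or 2 (3.40 and 2.88), ended these calls, as did quantile normalisation (0.99 and 1.57). The IVF call also ended with the hybridisation controls as a covariate (1.16; adjusted p = 0.825), with the replicate number as a block (adjusted p = 0.0538) and over all probe sets (adjusted p = 0.0506).

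Amot values of clones lay wholly below those of IVF embryos at the 4-cell stage, the morula and the blastocyst, with a wide spread between embryos and no call in the fits by stage. Cloned 4-cell embryos read -2.43, -3.44, -0.26, -3.41 and -3.33, with 4 of 5 near the oocyte values and all below the IVF embryos. The difference was -4.31 ± 1.01 (SE; adjusted p = 0.0954), and 0.56 with the hybridisation controls as a covariate (adjusted p = 0.963). Those controls did not overlap between clones and IVF embryos at this stage, so that fit cannot separate them from the kind of embryo. Cloned 8-cell embryos read 0.87, 3.12, -2.66, 3.87 and -2.65, and the difference was -3.21 ± 1.83 (adjusted p = 0.277). Without replicate 4, whose label is in doubt, it was -4.05 (adjusted p = 0.197). Cloned morulae read 2.79, 2.04, -1.57, 4.43 and -0.67, all below the narrow IVF range of 4.94 to 5.06, with a difference of -3.61 ± 1.40 (adjusted p = 0.453). Cloned blastocysts read 3.76, 3.68, 3.41, 2.74 and 4.42 against 4.71 to 5.33, a difference of -1.47 ± 0.36 (adjusted p = 0.0686). In the single fit of all 51 arrays the 4-cell and 8-cell differences were called, and those of the morula and the blastocyst were not. The other 2 Amot probe sets had SDs of 0.41 and 0.32 over the arrays and did not show the course.

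Because Amot is X-linked, its values are set beside those of genes that mark the sex of the nucleus. Among IVF 4-cell embryos the one with the lowest Amot (-0.18) had an Eif2s3y value of 0.53 and an Xist value of -5.68, and the other two had Eif2s3y at -5.48 and -5.38. Among IVF 8-cell embryos the lowest Amot (2.15) again came with Y-linked RNA (Eif2s3y 2.20; Xist -4.99). In IVF blastocysts the order was not the same, since the embryo without Y-linked RNA (Eif2s3y -5.52) read 5.17 and the others 4.71 and 5.33. Cloned embryos at the 4-cell stage all had Y-linked RNA (Eif2s3y 0.48 to 1.70), as did cloned morulae and blastocysts. Xist read 3.5 to 4.65 in cloned morulae and -2.58 to 1.89 in IVF morulae. With 3 IVF embryos a stage, the part of sex in the lower Amot of clones was not tested.

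Amotl1, the second angiomotin (Entrez 75723, chr9:14541966-14662974), was near its median in most embryos. By its main probe set the IVF group means spanned 0.41, and single embryos stood out, such as 1.04 in an IVF 4-cell embryo, 1.71 in a cloned 2-cell embryo and 3.60 in a cloned 8-cell embryo. The probe set 1431121_at was raised at the 1-cell stage. It read 0.02, 0.02 and 0.00 in oocytes, 2.53, 2.37 and 1.31 in IVF 1-cell embryos, and -0.01 to 0.01 at the IVF 2-cell stage. The rise was 2.06 ± 0.20 (SE; adjusted p = 1.17e-06 over 45037 probe sets) and the fall -2.07 ± 0.20 (adjusted p = 7.3e-07). Cloned 1-cell embryos read 1.74, 0.25, 0.61, 0.47 and 0.00, and their fall to the 2-cell stage was smaller than that of IVF embryos by 1.49 ± 0.28 (SE; adjusted p = 0.000294).

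Amotl2, the third angiomotin (Entrez 56332, chr9:102717091-102733418; 1 probe set), came on between the 2-cell and the 8-cell stage, and its course from the 4-cell to the 8-cell stage differed between clones and IVF embryos. IVF 2-cell embryos read -4.12, -4.11 and -4.12, IVF 4-cell embryos -3.13, -0.02 and -1.61, and IVF 8-cell embryos 1.41, 2.44 and 1.95. Both steps were called, 2.53 ± 0.58 (SE; adjusted p = 0.00421) and 3.52 ± 0.58 (adjusted p = 0.00591). The first was not called without IVF replicate 2 or 3 (1.75 and 2.54), nor the second without replicate 1 or 3 (3.01 and 3.5). Cloned 2-cell embryos read -4.03, -4.02, -3.85, -4.10 and -3.01. Cloned 4-cell embryos read 1.47, 1.75, 1.78, 1.08 and -0.18, a step of 4.98 ± 0.50 (adjusted p = 1.29e-08). The difference between this step and that of IVF embryos was 2.45 ± 0.79 (adjusted p = 0.0873), which was not called. Cloned 8-cell embryos then read -0.58, 1.96, -1.0, -1.48 and 0.59, so that 3 of 5 lay below 0 while all IVF 8-cell embryos lay above 1.

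The change of Amotl2 from the 4-cell to the 8-cell stage differed between clones and IVF embryos by -4.81 ± 0.79 (SE; adjusted p = 0.000559). It was the only one of the 10 members called in that comparison, against 1.31% of all genes. Without the 8-cell clone of replicate 4 the difference was -4.46 (adjusted p = 0.000859), and it was called in each of the other alternatives run, with adjusted p-values up to 0.0104. At the 4-cell stage clones were higher by 2.77 ± 0.77 (SE; adjusted p = 0.147), and at the 8-cell stage lower by -2.04 ± 0.81 (adjusted p = 0.16), with overlapping groups at both. By the morula the groups overlapped again, at 0.00 to 1.43 in clones and 0.77 to 1.52 in IVF embryos. Over all 5 comparisons of transitions, 2 of 50 member tests were called, against 4.49% over all genes. Of the other 3, limma called 0 members from the 1-cell to the 2-cell stage (11.2% of all genes), from the 2-cell to the 4-cell (2.64%) and from the morula to the blastocyst (1.62%). There 2, 3 and 3 members had an unadjusted p below 0.05 (21.8%, 13.3% and 9.81% of all genes).

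**Figure D4:**
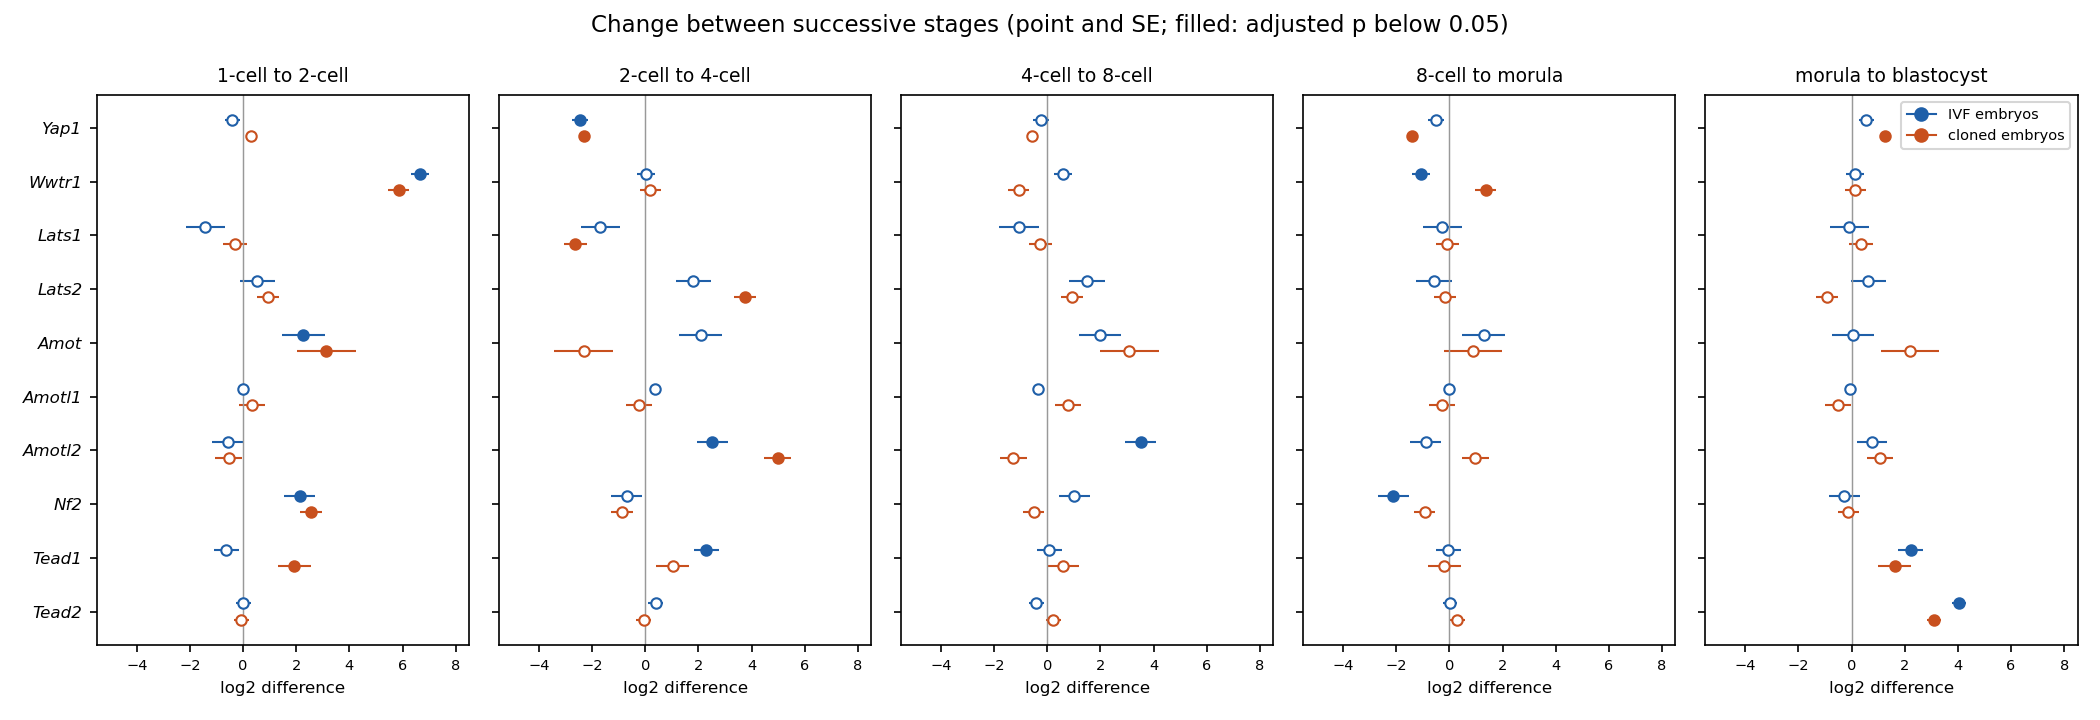
Change between successive stages in log2 (x axis) for each member (y axis), with its SE as the bar, in IVF embryos (blue) and clones (orange). Filled points are called at an adjusted p below 0.05, and open points are not. Amotl2 rose by 3.52 in IVF embryos, with an uncalled change of -1.28 in clones, from the 4-cell to the 8-cell stage, and Tead2 rose in both from the morula to the blastocyst.

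Tead1, which carries Yap1 and Wwtr1 to DNA (Entrez 21676, chr7:112679356-112906784), rose in steps. Oocytes read -1.94, -2.17 and -1.34 and IVF 2-cell embryos -3.0, -2.07 and -1.86. IVF 4-cell embryos read -0.49, -0.41 and 0.83, a rise of 2.29 ± 0.47 (SE; adjusted p = 0.00209). IVF 8-cell embryos and morulae lay between -0.18 and 0.37, and IVF blastocysts read 2.23, 2.16 and 2.31. The last rise was 2.23 ± 0.47 (adjusted p = 0.00321) in IVF embryos and 1.63 ± 0.62 (adjusted p = 0.0443) in clones. Without IVF replicate 3 neither IVF rise was called (2.09 and 2.10), and without clone replicate 2, 3 or 5, or with quantile normalisation, neither was the last rise in clones (1.75, 1.54, 1.59 and 0.93). With the hybridisation controls as a covariate the last rise was 1.39 in IVF embryos (adjusted p = 0.547) and turned to -0.69 in clones. The other Tead1 probe set, 1423434_at, gave IVF changes of 0.76 and 1.29 at these steps (adjusted p = 0.438 and 0.126) and 2.01 in clones at the last (adjusted p = 0.00223).

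Tead1 also rose from the 1-cell to the 2-cell stage in clones. Cloned 1-cell embryos read -0.44, -2.18, -2.56, -3.78 and -3.85 and cloned 2-cell embryos -0.12, -1.42, -0.65, -0.44 and -0.52, a rise of 1.93 ± 0.62 (SE; adjusted p = 0.013). Without clone replicate 3 or 5, or with quantile normalisation, it was not called (1.94, 1.58 and 0.72). Cloned 2-cell embryos all lay above the IVF 2-cell embryos, with a difference of 1.68 ± 0.37 (SE; adjusted p = 0.0787). The difference between the 1-cell to 2-cell changes was 2.56 ± 0.89 (SE; adjusted p = 0.0562). Without the 8-cell clone of replicate 4, which enters here only through the shared spread, it stayed at 2.56 (adjusted p = 0.0099). By 1423434_at this difference was 2.73 ± 0.79 (adjusted p = 0.0218 over 45037 probe sets). At the 8-cell stage clones read 2.02, 2.09, 1.12, -2.11 and 1.84, and the lowest is the embryo whose label is in doubt. With it the difference from IVF embryos was 0.94 ± 1.01 (SE; adjusted p = 0.505), and without it 1.72 (adjusted p = 0.0337).

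Tead2, a further TEAD factor (Entrez 21677, chr7:45215792-45233468; 1 probe set), came on at the blastocyst. IVF morulae read -0.04, -0.03 and -0.03 and IVF blastocysts 4.01, 3.90 and 4.12, a rise of 4.04 ± 0.28 (SE; adjusted p = 6.19e-08). Cloned morulae read 0.44, -0.04, 0.13, 1.95 and 0.26 and cloned blastocysts 4.08, 3.60, 3.37, 3.66 and 3.5, a rise of 3.10 ± 0.28 (adjusted p = 3.41e-09). Every blastocyst lay above every earlier embryo. Before the blastocyst some single arrays stood above the median, the highest at 1.95 in a cloned morula, 1.46 in an oocyte, 1.27 in the cloned 8-cell embryo of replicate 4 and 0.83 in a cloned 1-cell embryo. Blastocysts of both kinds overlapped, and the difference was -0.36 ± 0.16 (SE; adjusted p = 0.267).

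Tead4, the TEAD factor best known for its part in the trophectoderm, is no member but works with them. It rose from the 1-cell to the 2-cell stage by 3.91 ± 0.49 (SE; adjusted p = 7.34e-06) in IVF embryos and by 5.05 ± 0.32 (adjusted p = 5.44e-13) in clones. IVF embryos rose again to the 4-cell stage by 2.76 ± 0.49 (adjusted p = 0.000592), while clones changed by 0.21 ± 0.32, a difference of -2.55 ± 0.57 (adjusted p = 0.00667). From the 8-cell stage to the morula IVF embryos fell by -1.97 ± 0.49 and clones changed by -0.14 ± 0.32, a difference of 1.83 ± 0.57 (adjusted p = 0.0465). Cloned 8-cell embryos read 0.66, 0.93, -0.42, 1.02 and -0.41, all below the IVF values of 1.85, 1.84 and 2.53, with an adjusted p of 0.0651.

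Cdx2 and Sox2, which the pathway sets apart in outer and inner cells, both rose by the blastocyst, Sox2 at a later step in clones. Cdx2 rose from the 8-cell stage to the morula by 4.83 ± 0.88 (SE; adjusted p = 0.00114) in IVF embryos and by 6.47 ± 0.32 (adjusted p = 1.5e-13) in clones. Clones and IVF embryos did not differ in a call at any stage, and cloned blastocysts read 7.74 to 8.39 against 8.19 to 8.27. Sox2 rose over the same transition by 4.29 ± 0.82 (adjusted p = 0.00155) in IVF embryos and by 0.49 ± 0.39 in clones, a difference of -3.80 ± 0.81 (adjusted p = 0.00266). Cloned morulae read -1.62, -1.63, -1.66, 0.47 and -0.84 against 2.39, 5.55 and 4.29, with an adjusted p of 0.0783 for that stage. In clones the rise came at the blastocyst, by 5.43 ± 0.39 (adjusted p = 3.39e-11). Cloned blastocysts read 3.91 to 5.39, still all below the IVF blastocysts at 5.69 to 5.86, without a call.

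Among the other genes of the pathway, 20 of 21 listed kinases, scaffolds and regulators were measured. Clones against IVF embryos differed for 3 at the 1-cell stage (all higher), 2 at the 8-cell stage (both lower) and 3 at the blastocyst (2 higher and 1 lower), and for 0 at the 2-cell, 4-cell and morula stages. These 8 of 120 tests stand beside 3.99% over all genes. Dlg5, a polarity scaffold, was 1.93 ± 0.25 (SE; adjusted p = 0.0101) higher in cloned 1-cell embryos, and Limd1, a LIM protein that inhibits Lats kinases, was 0.62 ± 0.12 higher (adjusted p = 0.0298). Vgll4, a TEAD cofactor that competes with Yap1, was -1.65 ± 0.27 lower in cloned 8-cell embryos (adjusted p = 0.0226). The median of this list at the 4-cell stage, where 0 of its genes were called, was -0.62, against 0.015 over all genes. Medians of the list at the other stages are not given, and all genes were not matched to the list on spread. This median is therefore no test of the list. From the 1-cell to the 2-cell stage 6 of 20 rose and 5 fell in IVF embryos, and 6 rose and 10 fell in clones (35.9% of all genes called in IVF embryos and 41.3% in clones). Mob1a, the Lats cofactor, rose by 4.43 and 5.44, and Ajuba, another LIM protein, by 6.96 and 7.30.

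Of 22 listed polarity, junction and cytoskeleton genes 21 were measured. In IVF embryos 9 rose and 1 fell from the 8-cell stage to the morula, and in clones 7 rose and 4 fell (17.2% of all genes called in IVF embryos and 17.4% in clones). Against IVF embryos, clones were higher for 2 at the 1-cell stage, for 1 each at the 4-cell and 8-cell stages and for 4 at the blastocyst, where 2 were lower, in all 10 of 126 tests beside 3.99% over all genes. Pard6b, a subunit of the apical Par complex, was 2.18 ± 0.23 (SE; adjusted p = 0.00566) higher in cloned 1-cell embryos. Prkci, the kinase of that complex, was 0.64 ± 0.08 higher (adjusted p = 0.00984) and Crb3, an apical membrane protein, -0.78 ± 0.10 lower (adjusted p = 0.0122) in cloned blastocysts.

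The list of Yap1 and TEAD target genes, 14 of 14 measured, showed 3 calls in 84 tests between clones and IVF embryos, beside 3.99% over all genes. Birc5, an inhibitor of apoptosis, was lower in clones at the 2-cell and 4-cell stages (-0.73 ± 0.12 at the 4-cell; SE; adjusted p = 0.0364), and Sox2 was lower at the 8-cell stage (-1.33 ± 0.17; adjusted p = 0.0106). None was called at the blastocyst, the stage with more Yap1 RNA in clones by both probe sets. Ccn2, a classical target, was 1.92 ± 0.45 higher there (SE; adjusted p = 0.058). The list's median at the blastocyst was -0.01, and that of all genes -0.010. The list also holds Sox2, which marks inner cells, where Yap1 leaves the nucleus. Its genes thus need not move in the same direction as Yap1, and calls and median pool both directions. Sertoli cell markers, which could mark the donor nucleus, gave 2 calls in 48 tests against IVF embryos, beside 3.99% over all genes. These were Rhox5, higher by 8.07 ± 0.38 at the morula (adjusted p = 0.000823), and Gata4, lower by -4.27 ± 0.53 at the 8-cell stage (adjusted p = 0.00997). The mean of the 8 Sertoli markers, Rhox5 among them, was 0.41 to 1.34 in cloned 8-cell embryos and 0.10 to 0.98 in IVF ones. It was 0.91 to 1.70 against -0.38 to -0.34 at the morula, and 0.57 to 1.15 against -0.38 to 0.23 at the blastocyst. Their part in the members' differences was not tested.

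Among the members, the group means of Yap1 and Lats1 ran together over the 13 groups (Pearson r = 0.90), as did those of Lats2 and Amotl2 (0.89), while Lats1 ran against Lats2 (-0.95) and Amotl2 (-0.93). These are descriptions over group means that share the arrays and the course of development. All rest on main probe sets, and the other probe set correlated with the main one at 0.40 for Yap1 and -0.62 for Lats1. The 3 genes of the array with the course most like that of Amot were Plekhf1 (r = 0.966), Tcf15 (0.939) and Tango6 (0.935). Those most like Wwtr1 were Sike1 (0.993), Nol7 (0.989) and Rnf11 (0.986), and those most like Amotl2 were Mrpl14 (0.963), Bpnt2 (0.961) and Ppic (0.957). Each is the highest of 18193 genes, so high values are built into the choice.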

How the data were processed

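RNA of single oocytes and embryos was labelled by a 2-cycle protocol and measured on 51 Affymetrix arrays, per the labels. The authors deposited log2 values made by RMA, per the submitters' processing notes (genome build and version not given in the sources used here). Tested on the values, 94.3% of probe sets had exactly 1 array at 0 and 24 to 26 arrays below it, so each probe set was centred on its median. The log base was inferred from the values, whose widest range of 13.8 is more than natural logs of a 16-bit scan could span (11.1). Detection calls were not used here, so a low value is not absence.

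Of 45101 probe sets, 64 were controls, 34945 had 1 gene symbol, 932 several and 9160 none. For genes with several, the most variable one (by SD over the arrays) was used, which gave 18193 genes, of which 18032 matched RefSeq. Groups were compared with limma 3.58.1 (R 4.3.3): clones against IVF embryos in the 8 arrays of a stage, transitions in 21 oocyte and IVF arrays and in 30 clone arrays, and differences of transitions in all 51, with Benjamini-Hochberg adjustment within each of 22 comparisons. Values given for other probe sets are adjusted over 45037. Scripts were tested on simulated data. The p-values set a difference of means against the spread between embryos within groups, shared over all groups of a fit. With 3 to 5 arrays a group the precision is limited.

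The labels' replicate numbers did not pair the embryos: the correlations of same-numbered embryos' deviations ran from -0.204 to 0.102 over 18 pairs. The named genes were all 10 members, up to 3 genes per list and kind of comparison with the smallest adjusted p, and Tead4, Cdx2 and Sox2. Further genes named in the text were chosen after their values were seen. The members, lists and rules were chosen with earlier results of these data known. Stk3, Rock2, Cyp19a1 and Ddx3y were not analysed here. Tables and figures were made with pandas 2.3.3, SciPy 1.17.1 and matplotlib 3.10.9. Alternatives were the normalisation, array centring, probe set, filter, hybridisation covariate, replicate block, pooled fit and left-out arrays.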

Additional observations from a re-analysis of the deposited data

Results flagged for a closer look

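In 10 of 60 groups of 5 clones (10 genes at 6 stages) 1 embryo stood far from the other 4 by Dixon's test. The test's nominal rate of 1 in 20 would give 3, for independent and normally distributed values. Some of these flags fell on the same array, and some on genes near their median. The share over all genes was not computed, so the count is not read as an excess in the members. Yap1 was -2.42 in the cloned morula of replicate 2, with the others at -1.39 to -1.15. Lats1 was 0.93 in the cloned 4-cell embryo of replicate 3, against -0.12 to 0.10. Amotl2 was -3.01 in the cloned 2-cell embryo of replicate 5, against -4.10 to -3.85.

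Amotl1 and Tead2, genes near their median in most embryos, gave 6 of the 10. Amotl1 was 0.10 in the cloned 1-cell embryo of replicate 1, 1.71 in the 2-cell embryo of replicate 1 and 3.60 in the 8-cell embryo of replicate 2. Tead2 was 0.83 in the cloned 1-cell embryo of replicate 1, 1.27 in the 8-cell embryo of replicate 4 and 1.95 in the morula of replicate 4. Tead1 was -2.11 in the 8-cell clone of replicate 4, against 1.12 to 2.09 in the others. That array thus stood apart for both Tead1 and Tead2, and it is the one whose Y-linked RNA is near the oocyte level.

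The change of 2 members between stages differed between clones and IVF embryos by a test of the difference itself: Amotl2 from the 4-cell to the 8-cell stage (-4.81) and Wwtr1 from the 8-cell stage to the morula (2.44).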

How the results depend on the processing

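Of 28 called differences, 11 kept their call and direction in all alternatives run: Wwtr1 from the 1-cell to the 2-cell stage, Yap1 from the 2-cell to the 4-cell and Tead2 from the morula to the blastocyst (each in IVF embryos and clones), Nf2 from the 1-cell to the 2-cell, Lats2 and Amotl2 from the 2-cell to the 4-cell and Yap1 from the morula to the blastocyst (clones), and the Amotl2 difference from the 4-cell to the 8-cell stage. Of 338 alternative values of the 28, 269 kept the call, 64 lost it and 5 changed sign. Amotl2 and Tead2 have 1 probe set, so no other probe set was tried for them. For the other genes only the second most variable probe set was tried, so 1421820_a_at of Nf2 was not.

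Between clones and IVF embryos 2 member tests were called. The count was 4 with quantile normalisation, 1 with arrays centred on their medians and 5 with a filter on low SD. It was 12 in 1 fit of all arrays and 1 to 2 with a replicate left out. The hybridisation controls as a covariate gave 1 call, Yap1 at the 1-cell stage, and both main calls were lost. With the replicate number as a block 0 were called between clones and IVF embryos. The block gave 9 calls for oocyte and IVF transitions (11 without), 14 for clone transitions (13) and 3 for differences of transitions (2). IVF transitions gave 6 calls with the covariate and 6 to 8 with a replicate left out. Differences of transitions gave 4 with quantile normalisation, 4 with the other probe set, 4 with the covariate and 1 to 3 with a replicate left out. Why these counts moved was not tested.

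The other probe set reversed Amot from the 8-cell stage to the morula in clones (-0.88) and from the 1-cell to the 2-cell stage in IVF embryos (-0.02), Amotl1 from the 1-cell to the 2-cell in clones (-0.59) and from oocyte to 1-cell (2.06), and Yap1 from oocyte to 1-cell (4.89), from the 8-cell to the morula in clones (0.07), and in clones against IVF embryos at the 1-cell (-0.78) and 8-cell stages (-1.77). For Lats1 it reversed clones from the 1-cell to the 2-cell (2.06), the 2-cell to the 4-cell (1.86) and the morula to the blastocyst (-2.06), and IVF embryos from the 1-cell to the 2-cell (2.71) and the 8-cell to the morula (1.58). The covariate reversed Tead1 from the morula to the blastocyst in clones (-0.69). The cause was not tested. Signal over background is unknown here, so low values of different stages have no sure order.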
